A study of Mus musculus with 9 samples.

Results

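The comparison described here sets the TAZ-CAMTA1 fusion against TAZ4A, an activated form of TAZ, in MS1 cells, an endothelial line from mouse pancreas. It uses 6 of the 9 RNA-seq libraries of the study: 3 from cells that stably carried the lentiviral construct pCDH-TAZS4A (called TAZ4A here) and 3 from cells that carried pCDH-TAZ-CAMTA1. The remaining 3 libraries came from cells with the vector control pCDH-puro, and their levels are given where those of a gene are printed by library. All groups had therefore received a lentiviral vector of the same backbone, and none was left without a construct. Levels are read counts scaled to library size (CPM). Genes entered the comparison when they reached 0.5 CPM in at least 3 of the 6 libraries, which 13193 of the 23744 genes in the table did. A table from the iGenomes annotation, counted from the same libraries, gave 12261 genes under the same rule. The labels do not say whether replicates came from separate cultures, so p-values measure the spread between these libraries, which may be technical. They also do not say from which species the TAZ and CAMTA1 sequences of the constructs were taken.

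TAZ, encoded by Wwtr1, is a transcriptional coactivator that binds DNA through TEAD factors. The Hippo kinases LATS phosphorylate it on serines, which holds it in the cytoplasm, and replacing those serines with alanines gives a form that stays nuclear and active. The TAZ-CAMTA1 fusion, the product of the defining translocation of epithelioid haemangioendothelioma, joins the N-terminal part of TAZ with its TEAD-binding domain to the C-terminal part of CAMTA1, a calmodulin-binding transcription factor. The fusion has been reported to recruit the ATAC histone acetyltransferase complex. Setting both proteins side by side in 1 endothelial line asks how the output of the fusion differs from that of an active TAZ. The constructs differ in the CAMTA1 part, in how much of TAZ they hold and in the alanines of TAZ4A. Their protein levels are not given here. Differences between the groups therefore cannot be assigned to the CAMTA1 part alone.

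Each library held between 22817562 and 35491338 reads assigned to genes, so that 3 reads, taken as the smallest reliable level, stood for 0.0849 to 0.134 CPM. The endothelial markers fixed for the check were all present, with 10 of 10 at or above 0.5 CPM in every library, whereas 1 of 8 leukocyte, 1 of 7 epithelial and 2 of 8 fibroblast or smooth muscle markers reached that level throughout. Replicate 2 of TAZ-CAMTA1 stood apart from every other library. Of its reads 4.30% fell on ribosomal protein genes, where the other 8 libraries had 2.04% to 2.34%. Multi-mapped reads made up 30.6% of its splice junction reads, elsewhere 20.8% to 22.2%. The median length of the longest transcript, weighted by reads, was 3063 nt, and 3585 to 3685 nt elsewhere. Its log2 values correlated with those of replicates 1 and 3 at r = 0.967 and 0.966 across genes, while these 2 correlated at 0.996 with each other (a description across genes, which are not independent). Relative to the mean of replicates 1 and 3, it lay 0.53 higher on the log2 scale at the median of the 1020 genes whose longest transcript is under 1000 nt, and 0.78 lower (−0.78) at the median of the 1761 genes with transcripts over 6000 nt. Fold changes and counts of called genes below are therefore given for all 6 libraries or for both fits, and again without replicate 2. "Called in both" means an adjusted p under 0.05 in the same direction in both fits.

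**Figure D1:**
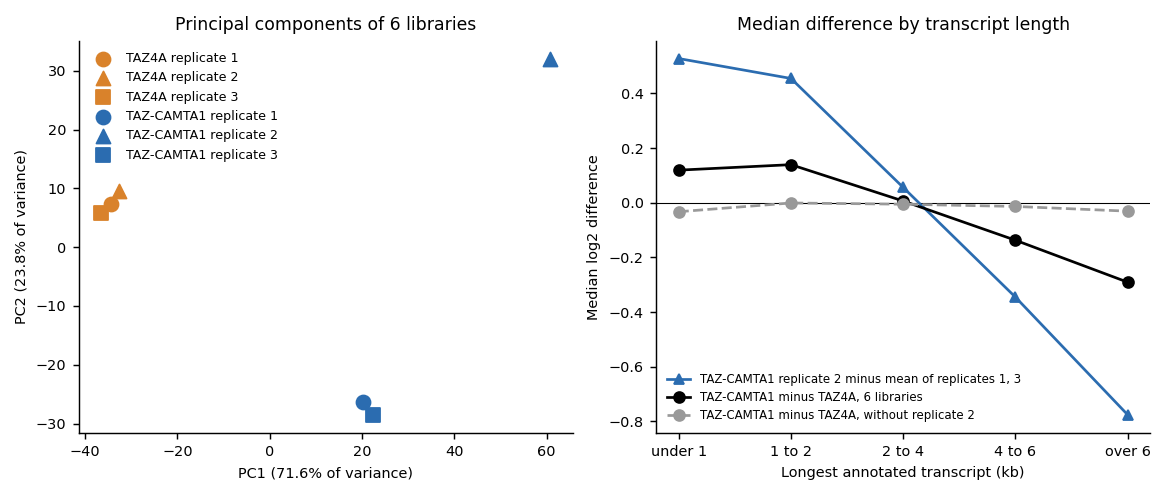
Left, the first 2 principal components of log2(CPM + 0.5) over 13193 genes for the 3 TAZ4A and 3 TAZ-CAMTA1 libraries, which carry 71.6% and 23.8% of the variance; right, by the length of each gene's longest transcript (kb), the median log2 deviation of TAZ-CAMTA1 replicate 2 from the mean of replicates 1 and 3 and the median log2 fold change with and without that library. The first component separates the groups, TAZ-CAMTA1 replicate 2 lies away from the other 2 replicates on both, and the deviation of replicate 2 runs from 0.53 for the shortest genes to −0.78 for the longest, the fold change with all libraries from 0.12 to −0.29, and that without replicate 2 stays near 0.

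The genes that the constructs themselves carry were read first. Camta1, at chr4:150917322-151861876 on the minus strand of GRCm38, stood at 5.79, 5.26 and 5.43 CPM with TAZ4A and 13.8, 13 and 13.8 CPM with TAZ-CAMTA1, and at 4.90 ± 0.825 CPM (mean ± SD, n = 3) in the vector control. In this and all later sentences the 3 values follow replicates 1, 2 and 3, and log2 fold changes are TAZ-CAMTA1 minus TAZ4A ± standard error on the log2(CPM + 0.5) scale, from limma with Benjamini-Hochberg adjustment. A pair of values in brackets gives this fold change with all 6 libraries and then without replicate 2. Camta1 was higher in every TAZ-CAMTA1 library, with a log2 fold change of 1.23 ± 0.093, adjusted p = 0.00042, and 1.26 ± 0.088, adjusted p = 1.3e-10 without replicate 2. Reads across 4 introns of Camta1 counted 119, 50 and 56 in the TAZ-CAMTA1 libraries. These introns were chosen after their values were seen, for 0 reads with TAZ4A and at least 20 with TAZ-CAMTA1. The difference between these 2 groups was therefore set by the choice and does not check the labels. The control libraries, which the choice did not use, had 0 reads there. The intron with the most reads, at chr4:151071457-151073987, had 39, 22 and 23.

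Wwtr1, the gene of TAZ, at chr3:57455649-57575910 on the minus strand, stood at 309, 309.9 and 323 CPM with TAZ4A and 476, 311 and 469.9 CPM with TAZ-CAMTA1, beside 532 ± 17.8 CPM in the control. It did not pass the test with all libraries (0.39 ± 0.18, adjusted p = 0.16) and was higher without replicate 2 (0.59 ± 0.039, adjusted p = 6e-11). The TAZ4A libraries were thus lower for Wwtr1 than the control libraries, and this table does not check the TAZ4A label: how much of the construct's RNA the mouse gene count holds was not tested. Among the partners of TAZ, Yap1 had a log2 fold change of −0.34 ± 0.16, adjusted p = 0.17 and Tead1 of −0.67 ± 0.30, adjusted p = 0.15. Without replicate 2 both were lower, at −0.16 ± 0.039, adjusted p = 0.001 and −0.31 ± 0.044, adjusted p = 3.8e-06. Tead3 was lower in both fits, at −0.47 and −0.51, but its adjusted p lay between 0.054 and 0.13 when any single library other than TAZ-CAMTA1 replicate 2 was left out. Tead2 (−0.043, adjusted p = 0.85) and Tead4 (−0.020, adjusted p = 0.93) did not pass with all libraries, and without replicate 2 they moved to −0.19 (adjusted p = 0.0032) and 0.13 (adjusted p = 0.11).

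Across the transcriptome 1744 genes were higher and 1675 lower in TAZ-CAMTA1 than in TAZ4A, 25.9% of the 13193 genes tested (13.2% higher, 12.7% lower). Without replicate 2 the counts were 4136 and 4428, or 64.9% (31.3% and 33.6%), while the median standard error fell from 0.15 to 0.063. Called in both were 1738 higher and 1674 lower genes, no gene was called in opposite directions, and 7 genes were called only when replicate 2 was included. Leaving out TAZ4A replicate 1, 2 or 3 instead left 795, 816 and 776 higher and 764, 790 and 772 lower, and leaving out TAZ-CAMTA1 replicate 1 or 3 left 1412 and 1334 higher and 1401 and 1225 lower. The values of the 3 libraries of each group did not overlap for 7153 genes (54.2%). The sign of the fold change differed between the fits for 2023 genes (15.3%).

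The typical difference was small and a minority of genes carried large ones. Over all genes tested the median log2 fold change was −0.027 with all libraries, with the 5th and 95th percentiles at −0.94 and 0.87, and −0.010, −0.81 and 0.83 without replicate 2. At least 2-fold in both fits were 355 higher and 430 lower genes, at least 4-fold 39 and 118, and at least 8-fold 3 and 35, so that the large changes lay mostly on the lower side. With the iGenomes table, 2973 of the 3091 genes called in both that it holds were called the same way (96.2%), edgeR's quasi-likelihood test on the recovered reads called 3289 of the 3412 in both of its fits (96.4%), and 3173 (93.0%) had the same direction and an FDR under 0.05 in the authors' deposited table. Genes called higher in both had a median longest transcript of 2979 nt and those called lower 3534 nt, against 3254 nt for all genes tested, and the gap was smaller among the genes called without replicate 2 (3400 and 3432 nt). The part that transcript length and replicate 2 have in single calls was not tested beyond the second fit.

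**Figure D2:**
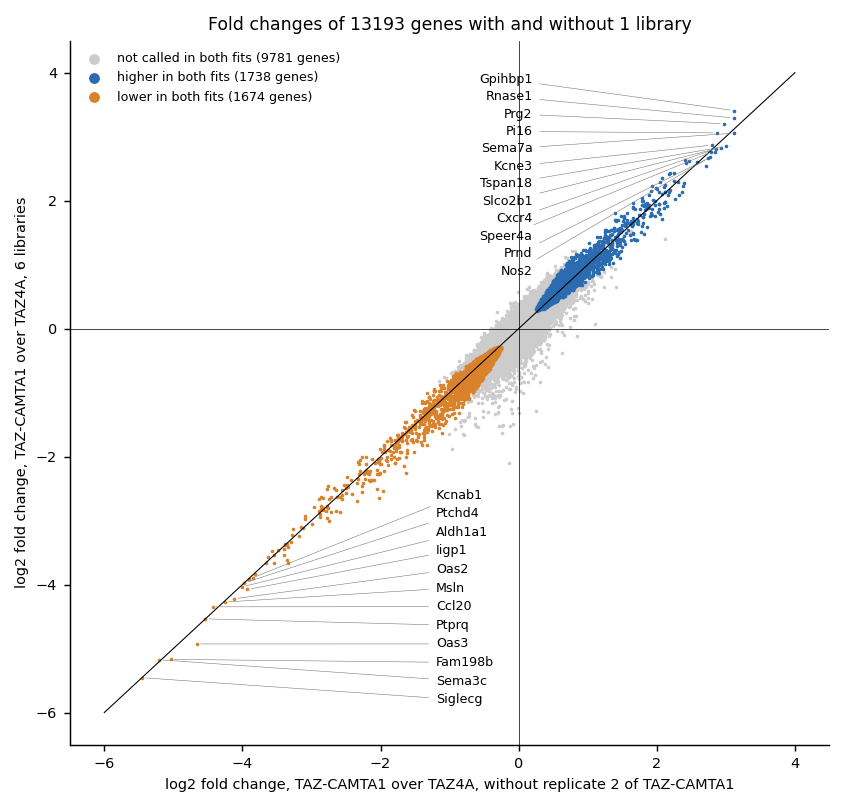
Log2 fold change of TAZ-CAMTA1 over TAZ4A for 13193 genes without TAZ-CAMTA1 replicate 2 (horizontal axis) and with all 6 libraries (vertical axis), both on the log2(CPM + 0.5) scale, with the 24 most changed named genes labelled. Genes called in both are coloured, 1738 higher and 1674 lower, and the labelled genes lie close to the line of equal values. The labelled genes were chosen for large changes called in both fits, a choice that favours similar values.

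Of the 12 largest rises, several are genes known from endothelium. Gpihbp1, which anchors lipoprotein lipase to capillary endothelium (chr15:75596628-75599481 on the plus strand), stood at 27.7, 28.4 and 26.7 CPM with TAZ4A and 225, 448 and 262 CPM with TAZ-CAMTA1, beside 84.8 ± 8.37 CPM in the control. Its log2 fold change was 3.41 ± 0.25, adjusted p = 0.00045, and 3.12 ± 0.057, adjusted p = 1.2e-18 without replicate 2, which was the highest library. Rnase1, a secreted ribonuclease of endothelium, stood at 9.11, 10.5 and 8.57 CPM with TAZ4A and 78.8, 124 and 91.1 CPM with TAZ-CAMTA1. It stood at 8.72 ± 0.668 CPM in the control, and the log2 fold change was 3.29 ± 0.18, adjusted p = 0.00016 and 3.11 without replicate 2. These genes were named for a large rise and for libraries that do not overlap, so the wide gap between the groups follows from that choice. Slco2b1, an organic anion transporter, went from 1.29, 1.58 and 1.19 to 13.3, 11 and 13.7 CPM, with 12.1 ± 0.376 CPM in the control (2.83 and 2.93 on the log2 scale in the fits with and without replicate 2). Prnd, which encodes the prion-like protein doppel, stood at 8.45, 8.09 and 9.55 CPM with TAZ4A and 61.4, 50.9 and 63.5 CPM with TAZ-CAMTA1 against 1.02 ± 0.195 CPM in the control, with 2.68 and 2.78.

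Several others encode receptors, ligands and enzymes. Cxcr4, the receptor of the chemokine CXCL12, stood at 26.9, 26.7 and 25.2 CPM with TAZ4A and 182, 176 and 206 CPM with TAZ-CAMTA1, beside 217 ± 16 CPM in the control. This gave a log2 fold change of 2.81 ± 0.097, adjusted p = 2.7e-05 and 2.86 ± 0.056, adjusted p = 4.8e-19 without replicate 2. The TAZ-CAMTA1 and control libraries were thus both far above TAZ4A for Cxcr4. Sema7a, a membrane-anchored semaphorin, went from 2.61, 2.07 and 2.67 to 23.3, 21.9 and 26.6 CPM, with 2.94 ± 0.120 CPM in the control (3.05 and 3.11). Nos2, the inducible nitric oxide synthase, went from 5.58, 5.72 and 6.05 to 42.4, 35.0 and 40.5 CPM, with 6.72 ± 0.110 CPM in the control (2.66 and 2.74). The tetraspanin gene Tspan18 rose by 2.85 and 3.0, the potassium channel subunit gene Kcne3 by 2.87 and 2.79, and the peptidase inhibitor gene Pi16 by 3.06 and 2.87. Prg2, which encodes the major basic protein of eosinophil granules, stood at 10.8, 13.9 and 10.7 CPM with TAZ4A and 97.8, 154 and 92.9 CPM with TAZ-CAMTA1, with 6.71 ± 0.671 CPM in the control (3.20 and 2.97). Speer4a rose by 2.76 and 2.79, with 9.02 ± 0.675 CPM in the control, but belongs to a family of near-identical copies, so its reads cannot be placed with certainty.

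Among the 12 largest falls, several genes stood near 0 both in the TAZ-CAMTA1 libraries and in the control libraries. Siglecg, a sialic acid-binding lectin known from B cells (chr7:43408204-43418358 on the plus strand), stood at 22.9, 23.2 and 22.8 CPM with TAZ4A and 0.0299, 0.0319 and 0.0417 CPM with TAZ-CAMTA1, which is 3 reads in all with TAZ-CAMTA1 against 2351 with TAZ4A and a ratio of 679.6 (95% counting interval 232 to 3298). Ptprq, a receptor-type phosphatase, had 1138 reads with TAZ4A and 0 with TAZ-CAMTA1, at least 107-fold lower at 3 reads per library. Ptchd4, a patched-domain gene, had 758 and 0, at least 71.4-fold lower. Aldh1a1, which makes retinoic acid from retinaldehyde, had 829 and 2, a ratio of 359 (99.2 to 2973). In the control Siglecg stood at 0.00963 ± 0.0167, Ptprq at 0.0740 ± 0.0537, Ptchd4 at 0.0250 ± 0.0228 and Aldh1a1 at 0.0245 ± 0.0226 CPM, so the TAZ4A libraries were the ones that stood apart. The intervals cover counting error only, and the fitted fold changes of such genes are held in by the value of 0.5 CPM added before the logarithm.

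Fam198b stood at 147, 146 and 151 CPM with TAZ4A and 4.54, 2.96 and 3.55 CPM with TAZ-CAMTA1, beside 23.7 ± 1.49 CPM in the control. This gave a log2 fold change of −5.17 ± 0.15, adjusted p = 1.6e-05 and −5.04 ± 0.074, adjusted p = 7.6e-18 without replicate 2. Sema3c, a secreted semaphorin, went from 18.6, 17.9 and 20.7 to 0.0597, 0.0637 and 0 CPM, with 0.422 ± 0.177 CPM in the control (−5.17 and −5.21). The mesothelin gene Msln went from 18.2, 18.2 and 16.7 to 0.448, 0.414 and 0.459 CPM, with 1.12 ± 0.140 CPM in the control (−4.27 and −4.25). Non-overlap of the groups was a condition for naming these genes, so replicate 2 lies with the other fusion libraries by that choice. Kcnab1, a potassium channel beta subunit gene, had log2 fold changes of −3.92 and −3.91, with 0.0447 ± 0.0159 CPM in the control. The remaining 4 of the 12, Oas3, Oas2, Iigp1 and Ccl20, belong to antiviral and chemokine genes and are described with those.

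**Figure D3:**
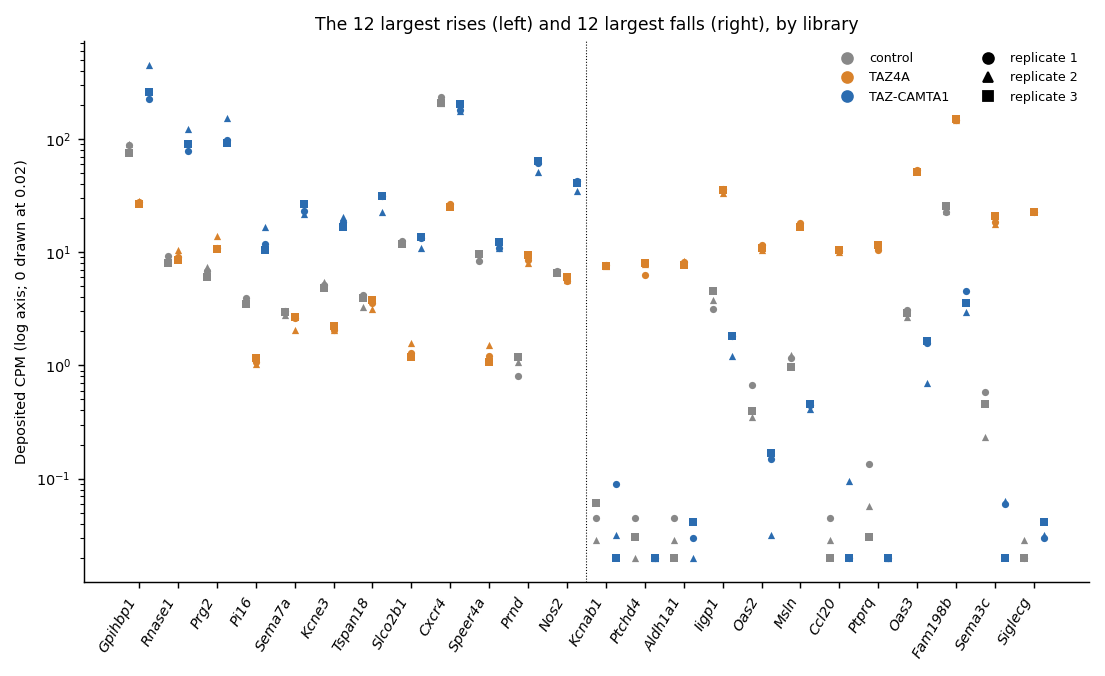
Level (CPM, log axis, with 0 drawn at 0.02) of the 24 most changed named genes, 12 higher at the left and 12 lower at the right, 1 point per library for TAZ4A, TAZ-CAMTA1 and control. The 24 genes were chosen for TAZ4A and TAZ-CAMTA1 libraries that do not overlap. By that choice replicate 2 of TAZ-CAMTA1 lies on the same side as replicates 1 and 3.

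Lists of genes by role were then read, each by how many of its tested members were called in both fits, beside 13.2% higher and 12.7% lower over all genes tested. The members of a list were chosen with earlier results of these data known, and no list was tested against others. Beside the counts of a list stand those without TAZ-CAMTA1 replicate 2. These are to be read against the shares over all genes tested in that fit, 31.3% higher and 33.6% lower. Where leaving out another library moved a count by more than 1.5 times, that count is given as well. The totals over all genes with those libraries left out stand above. Among lists of at least 10 tested members, the interferon-stimulated genes had 31 of 35 members lower, the amino acid response genes of ATF4 had 24 of 29 lower and the genes of the immune GTPases 9 of 14. On the higher side stood the endothelial identity genes with 17 of 36. The factors of the AP-1, EGR and NR4A families had 10 of 21 members higher, and the genes of the VEGF and angiopoietin systems 8 of 18.

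**Figure D4:**
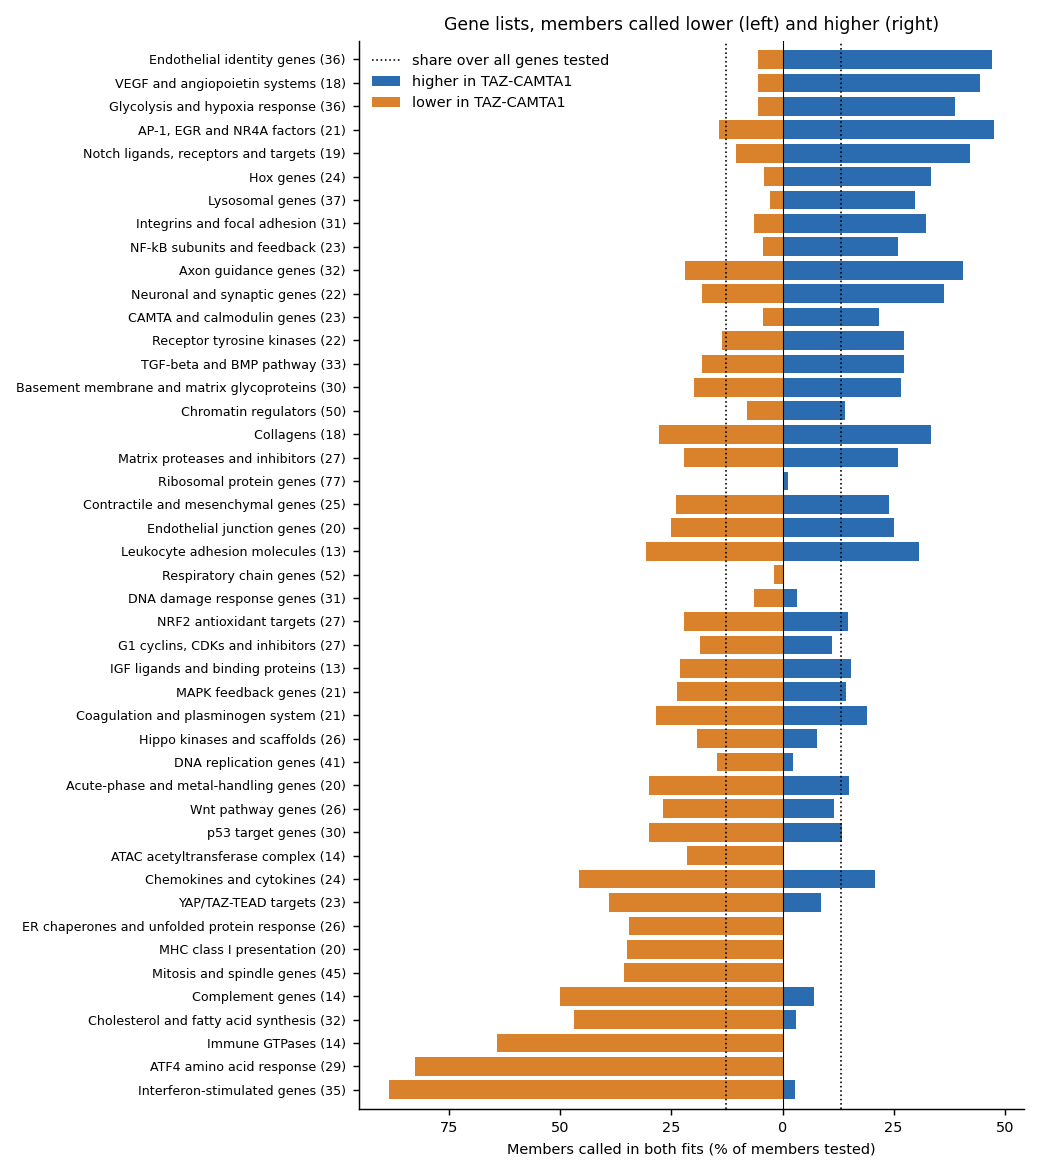
Percent of the tested members of each list called higher (to the right) or lower (to the left) in TAZ-CAMTA1 in both fits, for lists of at least 10 tested members, with dotted lines at the share over all 13193 genes tested (13.2% higher and 12.7% lower). Interferon-stimulated genes, the ATF4 response and immune GTPases reach farthest to the lower side, and endothelial, AP-1 and VEGF lists lie on the higher side.

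Interferon-stimulated genes, the antiviral effectors that interferon switches on through STAT and IRF factors, were called lower in all but a few members. Of 35 members tested 31 fell and 1 rose in both fits (1 higher and 34 lower without TAZ-CAMTA1 replicate 2, 0 higher with single TAZ4A libraries left out, and 0 higher without TAZ-CAMTA1 replicate 3). The median log2 fold change was −1.74 with all 6 libraries and −1.73 without replicate 2. Taken by library over the TAZ4A mean, the median member stood at −1.70, −1.73 and −1.76 with TAZ-CAMTA1 and at −1.27, −1.15 and −1.14 in the control, so all 6 of these libraries lay below TAZ4A. Oas3, which makes the oligoadenylates that activate RNase L, stood at 53.1, 53.7 and 51.2 CPM with TAZ4A and 1.58, 0.701 and 1.63 CPM with TAZ-CAMTA1, beside 2.88 ± 0.212 CPM in the control. This gave a log2 fold change of −4.93 ± 0.23, adjusted p = 8.5e-05 and −4.66 ± 0.072, adjusted p = 1.4e-20 without replicate 2. Oas2, of the same family, went from 11.51, 10.4 and 10.9 to 0.149, 0.0319 and 0.167 CPM, with 0.470 ± 0.174 CPM in the control (−4.22 and −4.12). Ifi44 went from 74.2, 71.9 and 75.9 to 6.24, 5.96 and 7.47 CPM, with 25 ± 2.03 CPM in the control (−3.41 and −3.35). Ifi27 was the only member that rose, from 109, 113 and 111 to 154, 270.4 and 169 CPM, with 122 ± 13.9 CPM in the control (0.78 and 0.53), with an adjusted p of 0.043, and it lost the call when any TAZ4A library or TAZ-CAMTA1 replicate 3 was left out (0.068 to 0.14).

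The promoter of Oas3 is shown because it holds the letters of an interferon-stimulated response element, searched as GAAANNGAA on both strands. The stretch below runs on the minus strand of chr5:120777700-120777754 (RefSeq sequence, GRCm38.p6), 5′ to 3′, with 2 overlapping matches in capitals, the first starting 75 bases before the gene's start.
Oas3 promoter stretch: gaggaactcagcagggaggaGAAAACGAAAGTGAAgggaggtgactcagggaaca
The same letters were found in 7.13% of the 32851 promoter windows, each from 250 bases before to 50 after a start site. By gene, 713 of the 9723 tested genes with a window had them (7.33%). They were also in 12 of 24 members of the interferon list, 55 of 304 genes that were at least 2-fold lower in both fits (18.1%) and 11 of 244 that were at least 2-fold higher (4.51%). A match describes the sequence and is not a measured binding site.

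The immune GTPases, which interferon also induces and which attack the vacuoles of intracellular microbes, had 9 of 14 members lower and 0 higher (2 higher and 11 lower without TAZ-CAMTA1 replicate 2). The median was −1.50 with all 6 libraries and −1.25 without replicate 2. Iigp1 stood at 35.9, 33.4 and 35.7 CPM with TAZ4A and 1.82, 1.21 and 1.84 CPM with TAZ-CAMTA1, beside 3.83 ± 0.712 CPM in the control (−4.08 and −3.93). Gvin1 had −2.85 and −2.64, and Tgtp1, which has a near-identical neighbour, −2.81 and −2.86. Of the genes of MHC class I presentation, 7 of 20 fell and 0 rose (0 higher and 17 lower without TAZ-CAMTA1 replicate 2). H2-K1, a classical class I heavy chain, went from 392, 396 and 374 to 159, 234 and 142 CPM, with 97.5 ± 5.90 CPM in the control (−1.15 and −1.36). Nlrc5, the transactivator of class I genes, went from 51.4, 52.0 and 53.4 to 19.8, 11.1 and 21.3 CPM, with 10.9 ± 0.666 CPM in the control (−1.61 and −1.33). H2-Q7, whose reads may be shared with similar genes of its cluster, had −2.25 and −2.22.

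Canonical targets of YAP and TAZ with TEAD did not move as 1 block. Of 23 tested, 9 were lower and 2 higher with the fusion in both fits (3 higher and 17 lower without TAZ-CAMTA1 replicate 2, and 1 higher with any other single library left out). The median was −0.46 with all 6 libraries and −0.32 without replicate 2. By library the median member stood at −0.28, −1.0 and −0.29 relative to TAZ4A and at −0.55, −0.69 and −0.71 in the control. Axl, a receptor tyrosine kinase, stood at 12, 12.6 and 11.7 CPM with TAZ4A and 0.537, 0.574 and 0.626 CPM with TAZ-CAMTA1, beside 0.326 ± 0.107 CPM in the control. This gave a log2 fold change of −3.54 ± 0.099, adjusted p = 1.6e-05 and −3.54 ± 0.11, adjusted p = 2.2e-16 without replicate 2. Ankrd1, a widely used reporter of YAP activity, went from 383, 384 and 388 to 109, 104 and 97.7 CPM (−1.89 and −1.89) against 30.1 ± 1.64 CPM in the control. Ereg, an EGF receptor ligand, went from 70.7, 64.0 and 70.2 to 24.1, 15.3 and 21.6 CPM, with 27.6 ± 2.26 CPM in the control (−1.75 and −1.56).

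The matricellular genes Ccn1 and Ccn2 (Cyr61 and Ctgf), named here after their values were seen because they are the most cited targets, did not pass with all libraries. Ccn1 stood at 1266, 1259 and 1242 CPM with TAZ4A and 1159.7, 1214 and 1181 CPM with TAZ-CAMTA1, with 542 ± 10.2 CPM in the control (−0.084 ± 0.078, adjusted p = 0.45). Ccn2 stood at 390.3, 399.7 and 396 CPM with TAZ4A and 390.2, 395 and 386 CPM with TAZ-CAMTA1, with 386 ± 11.7 CPM in the control (−0.018 ± 0.078, adjusted p = 0.88). Without replicate 2 Ccn1 passed at −0.10 ± 0.036, adjusted p = 0.019, and Ccn2 did not at −0.027 ± 0.038, adjusted p = 0.55. Vgll3, a TEAD cofactor, was nearly absent with the fusion, with 1 read against 522 with TAZ4A and a ratio of 452.7 (95% counting interval 80.9 to 17913), and stood at 0.00963 ± 0.0167 CPM in the control.

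The upstream Hippo kinases and scaffolds had 2 members higher and 5 lower of 26 (10 higher and 14 lower without TAZ-CAMTA1 replicate 2, 0 higher with any other single library left out, and 2 lower with single TAZ4A libraries left out). Wwc1, the scaffold KIBRA that activates LATS, went from 79.6, 80.2 and 76.9 to 20.5, 18.1 and 18.4 CPM, with 21.9 ± 1.31 CPM in the control (−2.03 ± 0.089, adjusted p = 5.8e-05 and −2.0 ± 0.056, adjusted p = 6.2e-17 without replicate 2). Among the other named members, Fat1 and Lats2, both lower, lost the call when any TAZ4A library was left out (adjusted p of 0.052 to 0.062). Rassf1 and Ajuba, both higher, lost it when any library other than TAZ-CAMTA1 replicate 2 was left out (0.055 to 0.19). Fat1, an atypical cadherin of exceptional transcript length, stood at 128, 122 and 126 CPM with TAZ4A and 30.2, 9.15 and 33.7 CPM with TAZ-CAMTA1, with 37.3 ± 7.28 CPM in the control, so that its fold change was −2.54 with and −1.96 without replicate 2.

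Chemokine and cytokine genes split, with 5 of 24 higher and 11 lower (7 higher and 13 lower without TAZ-CAMTA1 replicate 2). The list median was −0.51 with all 6 libraries and −0.50 without replicate 2. The named falls were ligands that draw leukocytes. Ccl20, which attracts CCR6-bearing cells, stood at 10.2, 10.1 and 10.6 CPM with TAZ4A and 0, 0.0956 and 0 CPM with TAZ-CAMTA1, which is 3 reads with the fusion against 1054 with TAZ4A, a ratio of 305 (95% counting interval 104 to 1480). It stood at 0.0245 ± 0.0226 CPM in the control. Ccl9 went from 6.39, 7.19 and 6.37 to 0.0896, 0.0637 and 0.0417 CPM, with 0.0197 ± 0.0171 CPM in the control (−3.66 and −3.66). Ccl7, a monocyte chemoattractant, went from 7.10, 8.06 and 7.5 to 0.149, 0.319 and 0.209 CPM, with 0.0885 ± 0.0275 CPM in the control (−3.48 and −3.57). Ackr3, an atypical receptor that takes up CXCL12, rose with Cxcr4, from 9.32, 10.4 and 8.81 to 35.9, 29.3 and 38.9 CPM, with 31.7 ± 0.582 CPM in the control (1.81 and 1.92). Il34, a ligand of the CSF1 receptor, rose by 1.53 and 1.45.

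The Ccl20 promoter is shown because it holds a TEAD motif beside 1 of the largest falls. The stretch lies on the plus strand of chr1:83116701-83116746 (RefSeq, GRCm38.p6), with the match, read as GGAATG on the opposite strand, in capitals 45 bases before the start.
Ccl20 promoter stretch: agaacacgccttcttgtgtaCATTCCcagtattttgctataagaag
GGAATG on either strand was in 12.6% of all promoter windows. By gene it was in 1263 of 9723 tested genes with a window, in 8 of 16 members of the YAP/TAZ target list with a window, in 56 of the 304 lower genes and in 39 of the 244 higher genes. The AP-1 letters TGANTCA were in 539 of the tested genes, 35 of the lower and 29 of the higher ones.

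Among complement and acute-phase genes more were called lower than higher. Of 14 complement genes 7 were lower and 1 higher in both fits (1 higher and 7 lower without TAZ-CAMTA1 replicate 2, and 0 higher with single TAZ4A libraries left out). The median was −0.41 with all 6 libraries and −0.35 without replicate 2. C3, the component on which all complement routes converge, stood at 202, 205 and 189 CPM with TAZ4A and 55.1, 42.7 and 54.0 CPM with TAZ-CAMTA1, beside 1.96 ± 0.0859 CPM in the control (−1.97 ± 0.12, adjusted p = 0.00024 and −1.85 ± 0.045, adjusted p = 8e-18 without replicate 2). Masp1, a protease of the lectin route, had 409 reads with TAZ4A and 2 with the fusion, a ratio of 177 (48.8 to 1469), and stood at 0.0447 ± 0.0159 CPM in the control. Of 20 acute-phase and metal-handling genes 6 were lower and 3 higher (5 higher and 10 lower without TAZ-CAMTA1 replicate 2). Saa3, a serum amyloid, went from 3.15, 3.45 and 3.14 to 0.0896, 0.287 and 0.209 CPM (−2.44 and −2.53) against 0.0548 ± 0.0323 CPM in the control. The antiprotease gene Slpi went from 20.2, 21.3 and 19.6 to 2.84, 4.30 and 2.71 CPM, with 0.0101 ± 0.0175 CPM in the control (−2.49 and −2.67). Cp, the copper carrier ceruloplasmin, had −2.55 and −2.27. The risers Serpina3h and Serpina3i belong to a cluster of near copies.

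Genes of NF-kB and its feedback loop had more members called higher than lower. Of 23 members 6 were higher and 1 lower (13 higher and 5 lower without TAZ-CAMTA1 replicate 2, and 3 higher and 0 lower with single TAZ4A libraries left out). The median was 0.054 with all 6 libraries and 0.20 without replicate 2. Traf1, an adaptor of TNF receptors, went from 18.2, 17.7 and 18.2 to 64.0, 85.3 and 66.2 CPM, with 29.7 ± 1.11 CPM in the control (1.95 ± 0.13, adjusted p = 0.0003 and 1.83 ± 0.057, adjusted p = 3.3e-16 without replicate 2). Nfkbie, an inhibitor that holds NF-kB in the cytoplasm, rose by 1.12 and 0.96, and Tnip1, a partner of the deubiquitinase A20, by 0.94 and 0.84. Tnfaip3, which encodes A20 itself, was lower at −0.77 and −0.57 but lost the call when any TAZ4A library was left out (adjusted p of 0.093 to 0.10).

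Many genes of the amino acid, ER and sterol programs were lower with the fusion. The ATF4 list, genes of amino acid synthesis and uptake that rise when amino acids are short or the ER is stressed, had 24 of 29 members lower and 0 higher (0 higher and 28 lower without TAZ-CAMTA1 replicate 2). The median was −0.81 with all 6 libraries and −0.90 without replicate 2. By library the median member stood at −0.91, −0.63 and −0.89 with TAZ-CAMTA1 and at −0.56, −0.61 and −0.64 in the control, relative to TAZ4A. Cth, which makes cysteine from cystathionine, stood at 2.40, 2.58 and 2.46 CPM with TAZ4A and 0.0896, 0.191 and 0.125 CPM with TAZ-CAMTA1, beside 0.538 ± 0.202 CPM in the control (−2.23 ± 0.11, adjusted p = 8.3e-05 and −2.29 ± 0.15, adjusted p = 3e-11 without replicate 2). Slc7a11, the cystine importer, went from 23.6, 23.5 and 25 to 10.2, 5.64 and 9.77 CPM, with 19.1 ± 1.29 CPM in the control (−1.48 and −1.23). Sesn2, a sensor of leucine, went from 36.3, 33.9 and 33.4 to 12.6, 13.3 and 11.7 CPM, with 16 ± 0.528 CPM in the control (−1.43 and −1.47). Among 26 ER chaperones and genes of the unfolded protein response, 9 were lower and 0 higher (0 higher and 23 lower without TAZ-CAMTA1 replicate 2, and 5 lower with single TAZ4A libraries left out). Hspa5, the chaperone BiP, went from 1524, 1526 and 1561 to 759, 769 and 683 CPM, with 1273 ± 87.8 CPM in the control (−1.06 and −1.09). Hyou1 had −1.01 and −0.88, and Herpud1 −0.93 and −0.96.

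Genes of cholesterol and fatty acid synthesis, which SREBP factors switch on when sterols are low, had 15 of 32 members lower and 1 higher (3 higher and 25 lower without TAZ-CAMTA1 replicate 2, and 0 higher with any other single library left out). The median was −0.58 with all 6 libraries and −0.46 without replicate 2. The control libraries lay on the opposite side of TAZ4A: the median member stood at 0.43, 0.36 and 0.41 there and at −0.45, −0.72 and −0.39 with the fusion. Insig1, which retains SREBP in the ER, stood at 84.4, 84.0 and 83.1 CPM with TAZ4A and 28.8, 27.5 and 29.3 CPM with TAZ-CAMTA1, beside 162 ± 3.63 CPM in the control (−1.54 ± 0.080, adjusted p = 0.0001 and −1.51 ± 0.048, adjusted p = 4.5e-16 without replicate 2). Lss, which forms lanosterol, went from 19.9, 18.3 and 17.7 to 7.58, 5.45 and 8.01 CPM, with 20.7 ± 1.24 CPM in the control (−1.36 and −1.2). Dhcr7, of the last step of cholesterol synthesis, was the only member called higher (0.41 and 0.44), and it lost the call when any library other than TAZ-CAMTA1 replicate 2 was left out (adjusted p of 0.056 to 0.12).

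Many endothelial identity genes were higher with the fusion. Of 36 members 17 rose and 2 fell in both fits (29 higher and 4 lower without TAZ-CAMTA1 replicate 2, 7 to 9 higher and 0 to 1 lower with single TAZ4A libraries left out, and 1 lower without TAZ-CAMTA1 replicate 3). The median was 0.50 with all 6 libraries and 0.50 without replicate 2. By library the median member stood at 0.53, 0.25 and 0.47 with TAZ-CAMTA1 and 0.50, 0.39 and 0.45 in the control, so that by this median TAZ4A was the lowest of the 3 groups. Sox18, a transcription factor of vessel development, stood at 22.8, 23.3 and 22.2 CPM with TAZ4A and 121, 176 and 135 CPM with TAZ-CAMTA1, beside 108 ± 9.92 CPM in the control (2.62 ± 0.15, adjusted p = 0.00017 and 2.46 ± 0.056, adjusted p = 2.9e-18 without replicate 2). Vwf, von Willebrand factor of the Weibel-Palade bodies, went from 2.49, 2.38 and 1.81 to 8.0, 5.42 and 8.10 CPM (1.48 and 1.66) against 3.19 ± 0.534 CPM in the control. The tetraspanin gene Tspan7 went from 34.7, 36.8 and 36.0 to 79.1, 76.4 and 85.0 CPM, with 47.6 ± 3.93 CPM in the control (1.15 and 1.18). The members that fell were Nr2f2 (−0.52 without replicate 2) and Esm1 (−0.33 without replicate 2). In bulk RNA, more cells of a state and more RNA per cell cannot be told apart.

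The Notch and VEGF systems, which pattern vessels, also had more members called higher than lower. Of 19 Notch genes 8 were higher and 2 lower (12 higher and 3 lower without TAZ-CAMTA1 replicate 2, and 4 to 5 higher and 1 lower with single TAZ4A libraries left out). Dll4, the ligand of arterial and tip cells, stood at 101, 99.1 and 89.3 CPM with TAZ4A and 322, 291 and 319 CPM with TAZ-CAMTA1, with 311 ± 9.12 CPM in the control (1.68 ± 0.095, adjusted p = 0.00015 and 1.73 ± 0.049, adjusted p = 1.7e-16 without replicate 2). Notch4, a receptor of endothelium, rose by 1.18 and 1.31. Notch3, a receptor of mural cells, fell from 4.89, 4.90 and 5.25 to 1.49, 0.478 and 1.63 CPM, with 0.475 ± 0.0661 CPM in the control (−1.78 and −1.42). Among 18 genes of the VEGF and angiopoietin systems, 8 were higher and 1 lower (13 higher and 4 lower without TAZ-CAMTA1 replicate 2, and 5 to 6 higher with single TAZ4A libraries left out). The median was 0.55 with all 6 libraries and 0.70 without replicate 2. Pgf, placental growth factor, went from 239, 242 and 227 to 574, 799 and 561 CPM, with 354 ± 23.4 CPM in the control (1.43 and 1.26). Angptl2 rose by 1.29 and 1.43 and Pdgfb by 0.99 and 0.97, whereas Vegfd, a lymphatic growth factor, fell (−1.92 and −1.82). Of 20 junction genes 5 were higher, led by Cldn15 (1.39 and 1.27), and 5 lower, led by Jam2 (−1.75 and −1.69). These counts were 10 higher and 8 lower without TAZ-CAMTA1 replicate 2, and 3 higher and 3 lower with single TAZ4A libraries left out.

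**Figure D5:**
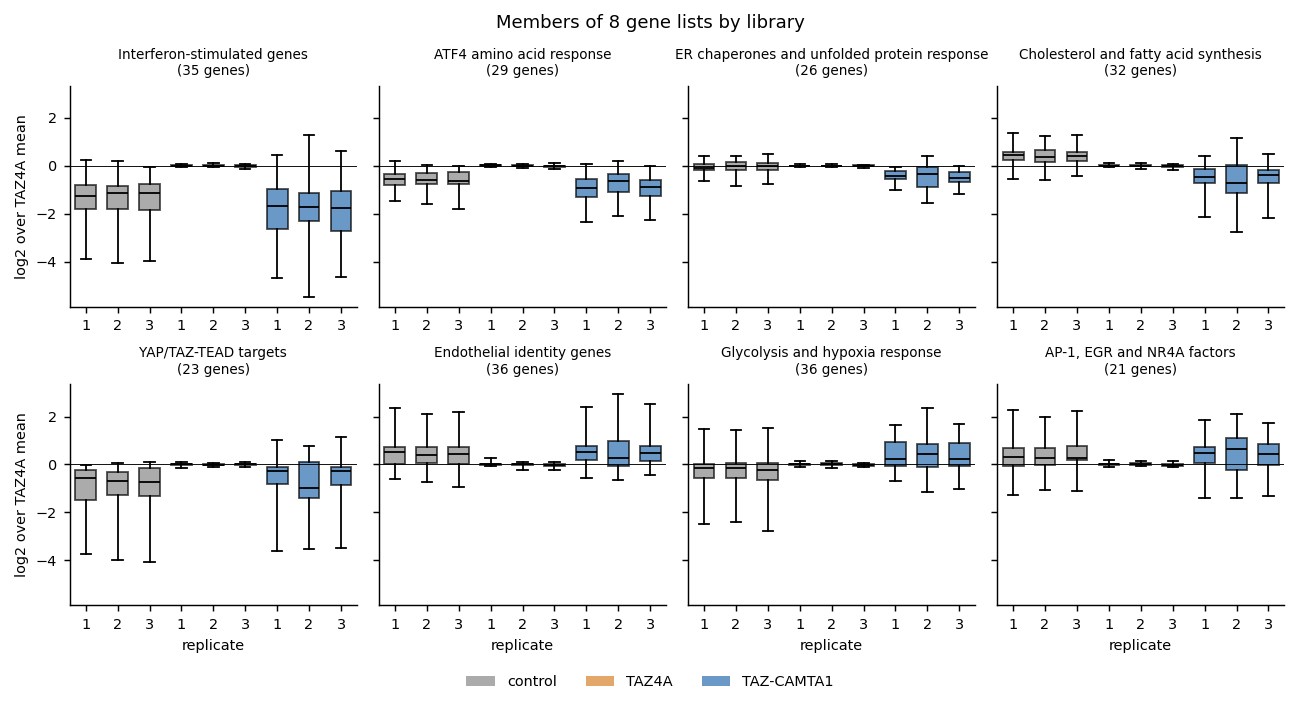
Log2 level over the TAZ4A mean of the members of 8 lists, by library (boxes give quartiles, whiskers the full range) for control, TAZ4A and TAZ-CAMTA1. The medians of interferon-stimulated genes lie near −1.7 in all 3 TAZ-CAMTA1 libraries (−1.70, −1.73 and −1.76), those of the sterol list above 0 in control and below 0 with the fusion, and those of the endothelial list above 0 in both.

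Many immediate-early and hypoxia genes were also higher. Of 21 genes of the AP-1, EGR and NR4A families 10 rose and 3 fell in both fits (12 higher and 4 lower without TAZ-CAMTA1 replicate 2, and 1 to 2 lower with single TAZ4A libraries left out). Egr1, a zinc finger factor induced within minutes of a stimulus, stood at 167, 169 and 167 CPM with TAZ4A and 615, 523 and 553 CPM with TAZ-CAMTA1, beside 217 ± 8.29 CPM in the control (1.74 ± 0.094, adjusted p = 0.00012 and 1.79 ± 0.045, adjusted p = 1e-17 without replicate 2). Ier2 rose by 1.54 and 1.26 and Junb by 1.26 and 1.09, while Fosl1, the late AP-1 member FRA-1 that RAS signalling raises, fell from 114, 115 and 110.1 to 42.9, 65.1 and 45.1 CPM, with 85.5 ± 3.73 CPM in the control (−1.17 and −1.35). The other members that fell were NR4A factors, Nr4a2 (−0.86 without replicate 2) and Nr4a1 (−0.39 without replicate 2). Nr4a1 lost the call when any library other than TAZ-CAMTA1 replicate 2 was left out (adjusted p of 0.097 to 0.17). Nr4a2 lost it without TAZ4A replicate 3 (0.056). Of 21 feedback genes of the MAP kinases 3 were higher, led by Dusp2 (1.41 and 1.23), and 5 lower, led by Spry2 (−1.2 and −1.15). These counts were 6 higher and 10 lower without TAZ-CAMTA1 replicate 2, 2 lower with single TAZ4A libraries left out, and 3 lower without TAZ-CAMTA1 replicate 3.

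Of the genes of glycolysis and hypoxia 14 of 36 were higher and 2 lower (19 higher and 6 lower without TAZ-CAMTA1 replicate 2, and 1 lower with single TAZ4A libraries left out). The median was 0.19 with all 6 libraries and 0.24 without replicate 2. Bnip3, a mitophagy receptor under HIF control, stood at 33.0, 30.4 and 32.5 CPM with TAZ4A and 101, 106 and 87.4 CPM with TAZ-CAMTA1, beside 17.1 ± 1.01 CPM in the control (1.60 ± 0.10, adjusted p = 0.00025 and 1.54 ± 0.061, adjusted p = 4.7e-14 without replicate 2). Ankrd37 rose by 1.89 and 1.66 and Ndrg1 by 1.5 and 1.55, whereas Hk2, a hexokinase, fell (−0.86 and −0.73). Lysosomal genes had 11 of 37 members higher and 1 lower (23 higher and 9 lower without TAZ-CAMTA1 replicate 2, 2 higher with single TAZ4A libraries left out, and 7 higher without TAZ-CAMTA1 replicate 3). Ctsh, a cathepsin, rose by 1.01 and 0.87, and Gpnmb fell (−1.32 and −1.24). NRF2 antioxidant targets had 4 higher and 6 lower of 27 (6 higher and 16 lower without TAZ-CAMTA1 replicate 2, 1 lower with single TAZ4A libraries left out, and 3 lower without TAZ-CAMTA1 replicate 3). Their median was −0.070 with all 6 libraries and −0.18 without replicate 2. Aox1 rose (1.28 and 1.49), whereas Slc7a11, described with the ATF4 list, fell (−1.23 without replicate 2).

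Guidance and matrix genes changed in both directions, often by large amounts. Of 32 axon guidance genes, which endothelium shares with neurons, 13 rose and 7 fell (18 higher and 11 lower without TAZ-CAMTA1 replicate 2, and 3 to 4 lower with single TAZ4A libraries left out). Besides Sema7a and Sema3c, the netrin receptor gene Unc5b stood at 13.8, 13.9 and 14.1 CPM with TAZ4A and 63.0, 39.4 and 60.3 CPM with TAZ-CAMTA1, with 24.4 ± 1.27 CPM in the control (1.89 ± 0.19, adjusted p = 0.0012 and 2.11 ± 0.060, adjusted p = 8.4e-17 without replicate 2). The ephrin receptor gene Epha7 fell from 18.2, 19 and 16.6 to 2.45, 1.24 and 2.67 CPM, with 4.82 ± 0.192 CPM in the control (−2.86 and −2.59). Of 18 collagen genes 6 were higher and 5 lower (8 higher and 8 lower without TAZ-CAMTA1 replicate 2, and 2 to 3 higher with single TAZ4A libraries left out). Col18a1, the precursor of endostatin, rose from 5.25, 4.95 and 4.89 to 11.52, 10.1 and 9.68 CPM, with 2.28 ± 0.507 CPM in the control (0.98 and 1.0). Col8a1, a short-chain collagen of vessels, fell from 218, 211 and 217 to 56.6, 30.7 and 53.9 CPM, with 33.2 ± 0.858 CPM in the control (−2.23 and −1.95). Among 30 further matrix glycoproteins 8 were higher and 6 lower (15 higher and 10 lower without TAZ-CAMTA1 replicate 2, 5 higher with single TAZ4A libraries left out, and 5 higher without TAZ-CAMTA1 replicate 1), with Sparcl1 at 1.95 and 2.03 and Ltbp1, which tethers latent TGF-beta, at −3.61 and −3.36. Dcn, the proteoglycan decorin, had 202 reads with TAZ4A and 1 with the fusion, a ratio of 175 (31.1 to 6953), and stood at 0 ± 0 CPM in the control.

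Of 27 matrix proteases and their inhibitors 7 were higher and 6 lower (15 higher and 9 lower without TAZ-CAMTA1 replicate 2). Adam12 rose by 1.82 and 2.02, and Adamts5, an aggrecanase, fell from 26.2, 27.6 and 29.2 to 1.97, 1.37 and 1.88 CPM, with 3.26 ± 0.433 CPM in the control (−3.66 and −3.54). Integrin and focal adhesion genes had 10 higher and 2 lower of 31 (18 higher and 8 lower without TAZ-CAMTA1 replicate 2, and 6 to 7 higher and 1 lower with single TAZ4A libraries left out), with Itgb3, of the vitronectin receptor, at 1.12 and 1.31 and Itgb2, known from leukocytes, at −2.12 and −2.0. In the coagulation and plasminogen system 4 of 21 were higher and 6 lower (8 higher and 10 lower without TAZ-CAMTA1 replicate 2). Plat, the tissue plasminogen activator, stood at 152, 155 and 153 CPM with TAZ4A and 535, 399.7 and 532 CPM with TAZ-CAMTA1, with 261 ± 6.74 CPM in the control (1.66 ± 0.13, adjusted p = 0.00063 and 1.80 ± 0.039, adjusted p = 1.4e-18 without replicate 2). The anticoagulant receptor gene Thbd fell from 508, 505 and 508 to 157, 102 and 149.8 CPM, with 455 ± 17.3 CPM in the control (−1.92 and −1.72). F5, coagulation factor V, went from 6.21, 6.17 and 5.99 to 0.149, 0.159 and 0.125 CPM, with 0.159 ± 0.0374 CPM in the control (−3.36 and −3.38). Leukocyte adhesion molecules had 4 higher and 4 lower of 13, among them Icam2 at 1.36 and 1.15 and the P-selectin gene Selp at −1.34 and −1.21. These counts were 5 higher and 7 lower without TAZ-CAMTA1 replicate 2, and 2 higher with single TAZ4A libraries left out.

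Genes of the TGF-beta and BMP pathway were called in both directions. Of 33 members 9 were higher and 6 lower (13 higher and 10 lower without TAZ-CAMTA1 replicate 2, and 2 to 3 higher with single TAZ4A libraries left out). Fst, the activin antagonist follistatin, stood at 768, 775 and 806 CPM with TAZ4A and 73.7, 67.1 and 73.5 CPM with TAZ-CAMTA1, beside 89.3 ± 2.07 CPM in the control (−3.45 ± 0.086, adjusted p = 1.4e-05 and −3.40 ± 0.040, adjusted p = 1.8e-22 without replicate 2). Bmper, an extracellular BMP modulator, went from 13.2, 13.6 and 13.8 to 0.955, 0.861 and 0.751 CPM, with 3.12 ± 0.561 CPM in the control (−3.38 and −3.38). Inhba, the activin subunit, went from 9.20, 8.26 and 9.19 to 2.66, 0.924 and 1.84 CPM, with 0.535 ± 0.186 CPM in the control (−2.10 and −1.79). Id3, a target of BMP receptors, rose from 2.25, 2.94 and 1.93 to 10.2, 14.6 and 8.68 CPM, with 3.21 ± 0.322 CPM in the control (2.0 and 1.80). Acvrl1, the endothelial BMP receptor ALK1, rose by 0.94 and 0.86. Among contractile and mesenchymal genes 6 of 25 were higher and 6 lower (14 higher and 7 lower without TAZ-CAMTA1 replicate 2, and 3 to 4 higher and 3 lower with single TAZ4A libraries left out). Cnn1, smooth muscle calponin, had 719 reads with TAZ4A and 0 with the fusion, at least 67.7-fold lower, and stood at 0.0101 ± 0.0175 CPM in the control, while its relative Cnn2 rose by 1.12 and 0.91.

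Growth factor receptor and Wnt genes are given by count. Of 22 receptor tyrosine kinases 6 were higher and 3 lower (10 higher and 7 lower without TAZ-CAMTA1 replicate 2, and 3 to 4 higher and 1 lower with single TAZ4A libraries left out). Fgfr1 rose from 51.2, 48.1 and 46.7 to 129, 98.8 and 121 CPM, with 67.3 ± 2.82 CPM in the control (1.24 and 1.35) and Tie1, of endothelium, by 0.98 and 1.0. Wnt pathway genes had 3 higher and 7 lower of 26 (10 higher and 12 lower without TAZ-CAMTA1 replicate 2, and 1 to 2 higher with single TAZ4A libraries left out), with the Wnt antagonist gene Frzb at −1.38 and −1.32 and the ligand gene Wnt5a at −1.27 and −1.03. In the IGF list 2 of 13 rose and 3 fell in both fits (5 higher and 6 lower without TAZ-CAMTA1 replicate 2). Irs1, the docking protein of the insulin and IGF receptors, went from 7.94, 7.89 and 8.42 to 1.07, 0.797 and 1.54 CPM, with 0.638 ± 0.105 CPM in the control (−2.41 and −2.26). Stc1 rose by 1.59 and 1.86.

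Some cell cycle genes were lower by small amounts. Of 45 mitosis and spindle genes 16 were lower and 0 higher (0 higher and 33 lower without TAZ-CAMTA1 replicate 2, 2 to 3 lower with single TAZ4A libraries left out, and 6 lower without TAZ-CAMTA1 replicate 3). The median was −0.30 with all 6 libraries and −0.26 without replicate 2, and by library −0.27, −0.41 and −0.28 with the fusion and 0.030, 0.085 and 0.078 in the control. Foxm1, the transcription factor of the mitotic program, stood at 269, 269 and 269 CPM with TAZ4A and 164, 114 and 161 CPM with TAZ-CAMTA1, with 213 ± 7.79 CPM in the control (−0.89 ± 0.15, adjusted p = 0.0088 and −0.73 ± 0.039, adjusted p = 2e-12 without replicate 2). DNA replication genes had 6 of 41 lower and 1 higher (3 higher and 24 lower without TAZ-CAMTA1 replicate 2, 0 to 2 higher with any other single library left out, and 2 lower with single TAZ4A libraries left out), with Rrm2, of ribonucleotide reductase, at −0.60 and −0.60 and Orc1, of the origin complex, at −0.62 and −0.55. The lower count in both fits lay near the 12.7% over all genes tested. By library the median replication gene stood at −0.12, 0.040 and −0.16 with the fusion, so replicate 2 had the opposite sign. Of the genes of the G1 phase 3 of 27 were higher and 5 lower (7 higher and 11 lower without TAZ-CAMTA1 replicate 2, 2 lower with single TAZ4A libraries left out, and 3 lower without TAZ-CAMTA1 replicate 3), where Myc fell (−0.77 and −0.87) and its relative Mycn rose by 1.13 and 1.12. Targets of p53 had 9 lower and 4 higher of 30 (5 higher and 19 lower without TAZ-CAMTA1 replicate 2, and 1 higher with any other single library left out), with Ccng1 at −1.49 and −1.37 and Btg2 at 1.61 and 1.65.

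The genes that CAMTA1 is associated with were read from 2 lists. Of 23 genes of the CAMTA family and calmodulin signalling 5 were higher, Camta1 included, and 1 lower (11 higher and 7 lower without TAZ-CAMTA1 replicate 2, 3 higher and 0 lower with single TAZ4A libraries left out, 3 higher without TAZ-CAMTA1 replicate 1, and 0 lower without TAZ-CAMTA1 replicate 3). The median was 0.051 with all 6 libraries and 0.0078 without replicate 2. Camk2a, a calmodulin-dependent kinase best known from neurons, stood at 0.630, 0.424 and 0.208 CPM with TAZ4A and 3.08, 2.45 and 3.8 CPM with TAZ-CAMTA1, beside 0.321 ± 0.0848 CPM in the control (1.98 ± 0.22, adjusted p = 0.0019 and 2.12 ± 0.18, adjusted p = 6.4e-09 without replicate 2), and Ppp3cc, a catalytic subunit of calcineurin, rose by 0.70 and 0.68. For the subunits of the ATAC complex, 3 of 14 were lower and 0 higher with all libraries and without replicate 2, and none of these 3, Zzz3, Kat2a and Wdr5, kept the call when a TAZ4A library was left out (adjusted p of 0.13 to 0.19). The lower count was 1 (Zzz3) without TAZ-CAMTA1 replicate 1 and 0 without TAZ-CAMTA1 replicate 3. Without replicate 2 alone 8 were lower and 1 higher. Neuronal and synaptic genes had 8 of 22 members higher and 4 lower (11 higher and 6 lower without TAZ-CAMTA1 replicate 2, and 5 higher with single TAZ4A libraries left out), with the adhesion gene Nrxn2 at 1.77 and 1.74 and Nrcam at −1.82 and −1.73.

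In several lists the library left out mattered for the direction. By library median, TAZ-CAMTA1 replicate 2 had the opposite sign to replicates 1 and 3 in 14 of the 49 lists, among them axon guidance (0.30, −0.15 and 0.31), matrix proteases (0.21, −0.38 and 0.18), integrins (0.15, −0.19 and 0.14) and endothelial junctions (0.18, −0.43 and 0.11). The median over the list changed sign between the fits for collagens (0.017 and −0.028), the TGF-beta pathway (−0.12 and 0.018), receptor tyrosine kinases (−0.025 and 0.15), the IGF list (−0.086 and 0.013) and leukocyte markers (0.24 and −0.014), as well as for the respiratory chain (0.069 and −0.20) and chromatin regulators (−0.19 and 0.083). Genes of the respiratory chain had 0 higher and 1 lower of 52 in both fits, but 33 lower and 2 higher without replicate 2, and by library the median member stood at −0.18, 0.54 and −0.17. Ribosomal protein genes, many of which have processed copies, had 1 of 77 higher and 0 lower in both fits (17 higher and 5 lower without TAZ-CAMTA1 replicate 2, 0 higher with single TAZ4A libraries left out, and 3 higher without TAZ-CAMTA1 replicate 1), with library medians of 0.085, 0.87 and −0.015. Chromatin regulators had 7 higher and 4 lower of 50 (22 higher and 13 lower without TAZ-CAMTA1 replicate 2, 0 to 2 higher with any other single library left out, 1 lower with single TAZ4A libraries left out, and 2 lower without TAZ-CAMTA1 replicate 3), with library medians of 0.074, −0.37 and 0.086. DNA damage response genes had 1 higher and 2 lower of 31 (4 higher and 12 lower without TAZ-CAMTA1 replicate 2, and 0 higher and 0 to 1 lower with any other single library left out). For the respiratory chain, ribosomal, chromatin and DNA damage lists no direction is given, and the part of replicate 2's shift by transcript length was not tested.

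Markers of other cell types were few and moved in both directions. Of the epithelial markers 8 were tested, and 4 fell and 1 rose in both fits (1 higher and 4 lower without TAZ-CAMTA1 replicate 2). Krt19 went from 8.84, 9.73 and 7.71 to 0.806, 2.04 and 0.918 CPM, with 0.493 ± 0.0602 CPM in the control (−2.46 and −2.76). Cldn4 went from 3.03, 2.83 and 2.08 to 12.1, 15.4 and 12.5 CPM, with 3.82 ± 0.157 CPM in the control (2.14 and 2.04). Krt7 had 113 reads with TAZ4A and 3 with the fusion, a ratio of 32.7 (10.9 to 161), and stood at 0.0452 ± 0.0455 CPM in the control. Of 5 leukocyte markers tested, Siglecg fell and Lyz2 rose, from 2.19, 1.5 and 1.42 to 6.48, 10.4 and 6.30 CPM, with 0.0202 ± 0.0350 CPM in the control (1.88 and 1.66). The list counts were 2 higher and 1 lower without TAZ-CAMTA1 replicate 2, and 2 higher without TAZ-CAMTA1 replicate 1. The summed level of the endothelial markers was 7126 to 7368 CPM with TAZ4A, 10075 to 11745 CPM with TAZ-CAMTA1 and 10716 to 10924 CPM in the control. Pecam1, Tek, Tie1, Emcn, Vwf and Egfl7 were higher in every TAZ-CAMTA1 library than in any TAZ4A library. Cdh5, Kdr and Erg were so only in replicates 1 and 3. In replicate 2 they stood at 1013, 289 and 491 CPM, below all TAZ4A libraries. Eng stood at 263, 264 and 237 CPM with TAZ4A and 232, 249 and 242 CPM with TAZ-CAMTA1. The summed level of the leukocyte markers fixed for the check was 382 to 392 CPM with TAZ4A, 448, 679 and 514 CPM with TAZ-CAMTA1 and 436 to 503 CPM in the control. Cd68, a lysosomal protein of macrophages that other cells also make, carried nearly all of it, at 381 to 389, 441 to 668 and 436 to 503 CPM, while Ptprc, Itgam and Spi1 reached at most 0.226 CPM in any library. The epithelial markers summed to 19.4 to 20.5 CPM with TAZ4A, 24.5, 45.5 and 19.8 CPM with TAZ-CAMTA1 and 19.6 to 23.05 CPM in the control. The fibroblast and smooth muscle markers summed to 15.3 to 16.6 CPM with TAZ4A, 13.3, 9.50 and 15.3 CPM with TAZ-CAMTA1 and 5.2 to 5.67 CPM in the control. Their part in the results was not tested.

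The examples of genes that did not pass with all libraries, picked for small differences at high precision and level, were Apln, mt-Cytb and mt-Nd1. Apln, the apelin ligand of tip cells, stood at 2187, 2187 and 2147 CPM with TAZ4A and 2353, 2056 and 2263 CPM with TAZ-CAMTA1, with 1879 ± 32.5 CPM in the control (0.031 ± 0.089, adjusted p = 0.82 and 0.086 ± 0.036, adjusted p = 0.045 without replicate 2, where it passed with a small difference). The mitochondrial gene mt-Cytb had 0.011 ± 0.081, adjusted p = 0.93 and 0.011 ± 0.040, adjusted p = 0.82, and mt-Nd1 −0.018 ± 0.088, adjusted p = 0.9 and 0.011 ± 0.044, adjusted p = 0.84.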

How the data were processed

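RNA was measured by mRNA sequencing in 9 libraries of MS1 cells, 3 per construct; a stranded kit with poly-A selection was used per the labels. The submitters' processing notes name bcl2fastq, FastQC, STAR, featureCounts, edgeR and the mm10 build, with versions and strand setting not given in the sources used here. The gene tables deposited by the authors are headed CPM. Their column sums ranged from 973009 to 1034033 and so differ from those of plain CPM, which the design had assumed. They were treated as a signal that the authors scaled by library size, per the file headers. Each value was a whole multiple of the worth of 1 read in its library (100.0% whole within 0.01), which gave back the reads. Counts of reads over splice junctions, TPM values and a table of log2 fold changes with p-values, all deposited by the authors, served for checks only. No per-sample column of the tables used was left without a sample (0).

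The comparison used limma 3.58.1 in R 4.3.3 on log2(CPM + 0.5), with a mean-variance trend and robust variances, over the 6 libraries and again over 5 without TAZ-CAMTA1 replicate 2, with 4 and 3 residual degrees of freedom, and Benjamini-Hochberg adjustment over 13193 genes at 0.05. The procedure was also run on simulated reads drawn around the TAZ4A means, with the same spread in every library. That simulation held no library that stood apart and no shift by transcript length. It therefore does not check calls that depend on TAZ-CAMTA1 replicate 2. edgeR 4.0.16 and DESeq2 1.42.0 on recovered reads were alternatives. Symbols came from GENCODE annotation on GRCm38, which gave 23439 of 23744 genes a symbol. Low genes got a 95% interval on the ratio of reads, with a floor of 3 reads per library. Promoter windows came from RefSeq (GRCm38.p6), searched for fixed letters on both strands.

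The genes named were the 12 largest rises and 12 largest falls called in both fits with at least 5 CPM and no overlap of libraries, the construct genes and TEADs, up to 3 members per list and direction with at least 1 CPM, and 3 genes that did not pass with 6 libraries. The members and the 49 lists (1276 of 1537 entries tested) were chosen with earlier results of these data known. Some genes that this rule names are not reported here.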

Additional observations from a re-analysis of the deposited data

How the results depend on the processing

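The counts moved with the libraries used and with a limit on the fold. Leaving out each library in turn gave 776 to 4136 higher and 764 to 4428 lower genes, both highest without TAZ-CAMTA1 replicate 2. Library weights, which gave replicate 2 a weight of 0.0302, gave 4067 and 4471. Without replicate 2, the iGenomes table gave 4041 and 4256, edgeR 4319 and 4244, and a fit over 9 libraries 3884 and 4140. A limit of at least 2-fold left 431 and 518. Added values of 0.1 or 2, other filters, rescaling, quantile normalization, TPM, the iGenomes table, all 9 libraries, edgeR, DESeq2 and the authors' deposited table gave 1441 to 2447 higher and 1454 to 2449 lower. TPM moved the median of all genes to −0.11, and the split there was 1441 higher and 1687 lower.

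Of the 230 named genes called with 6 libraries none turned direction in any setting. Apart from the construct genes and TEADs they were chosen for large changes called the same way in both fits. That choice favours a stable direction, and over all genes tested the sign differed between the fits for 15.3%. Of the 230 genes 62 lost the call in at least 1 setting, mostly without TAZ4A replicate 1, 2 or 3 (58, 58 and 60). Tead2, not called, ran from −0.19 to 0.049 when single libraries were left out (positive without TAZ-CAMTA1 replicate 1 or 3), and was positive with quantile normalization (0.021) and with edgeR (0.00099). Tead4, not called, ran from −0.13 to 0.13 (positive without TAZ4A replicate 1 or TAZ-CAMTA1 replicate 2), and was positive with quantile normalization (0.0020), library weights (0.089), edgeR (0.019) and DESeq2 (0.0045), and without replicate 2 in the iGenomes table (0.084), the 9-library fit (0.13) and edgeR (0.15). The cause was not tested.

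Whether replicate numbers pair the libraries could not be settled. Deviations from the group means of same-numbered libraries correlated at 0.000045, 0.296 and 0.264. This was the best match for TAZ-CAMTA1 replicates 2 and 3, whereas replicate 1 correlated best with TAZ4A replicate 3 (0.212). Deviations within a group depend on each other and TAZ-CAMTA1 replicate 2 stood apart, so these values cannot decide it. With the replicate number as a block 1284 genes were higher and 1234 lower. Depth limits statements on genes near 3 reads per library.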

Other observations

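Of 24 Hox genes, which keep positional identity, 8 were higher and 1 lower with the fusion in both fits (14 higher and 3 lower without TAZ-CAMTA1 replicate 2, 4 to 5 higher and 0 to 1 lower with single TAZ4A libraries left out, and 5 higher without TAZ-CAMTA1 replicate 1), and the median was 0.39 with all 6 libraries and 0.33 without replicate 2. By library the median member stood at 0.37, 0.25 and 0.29 with TAZ-CAMTA1 and at −0.029, 0.036 and −0.053 in the control. Hoxb5 stood at 5.19, 5.21 and 4.92 CPM with TAZ4A and 9.32, 12.8 and 9.43 CPM with TAZ-CAMTA1, with 11.3 ± 0.392 CPM in the control (0.96 ± 0.14, adjusted p = 0.0054 and 0.82 ± 0.093, adjusted p = 1.8e-07 without replicate 2), and Hoxa13 at 0.719, 0.736 and 0.771 CPM with TAZ4A and 1.61, 1.85 and 1.54 CPM with TAZ-CAMTA1, with 0.640 ± 0.196 CPM in the control (0.80 and 0.74).

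Counts by kind of gene and by chromosome stand beside 13.2% higher and 12.7% lower over all genes tested in both fits. Without replicate 2 these shares were 31.3% and 33.6%. By kind of gene, 1614 of 11917 protein-coding genes were higher and 1581 lower in both fits, near the shares over all genes. Beside them stood 29 and 13 of 198 lincRNA genes, 38 and 10 of 186 antisense genes and 10 and 15 of 327 pseudogenes. Without replicate 2 the counts were 3884 and 4192 protein-coding, 60 and 30 lincRNA, 53 and 28 antisense genes and 25 and 53 pseudogenes. Antisense genes overlap others, and whether counting used strand is not given in the sources used here. By chromosome, 220 of the 1115 genes of chromosome 11 were higher and 108 lower, with a median log2 fold change of 0.085 (0.046 without replicate 2). On chromosome 13 the counts were 28 and 75 of 447 genes (−0.15 and −0.088), and on chromosome 3 they were 51 and 122 of 609 genes (−0.12 and −0.086). Without replicate 2 the counts were 435 and 328 on chromosome 11, 101 and 177 on chromosome 13 and 144 and 251 on chromosome 3. The 15 mitochondrial genes tested had a median of 0.37 with all libraries and 0.29 without replicate 2, and 3 of them were called higher in both fits and 8 without replicate 2.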
